A study of Rattus norvegicus with 2 samples.

Results

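BC probes are the microarray oligonucleotides whose target is a GenBank cDNA clone sequence with an accession of the form BC followed by 6 digits, placed on the array as non-coding transcripts. They were found by the form of their names: 861 of the 24684 probes of the array that are not controls, and 861 of the 9319 probes of its non-coding section, met the rule. The BC prefix is the one GenBank gave to full-length cDNA clones of the Mammalian Gene Collection, a large project that sequenced cloned messenger RNAs. Each BC accession had 1 probe, and each probe was printed as 3 spots on each array. The files give neither probe sequences nor gene names for these clones, and the gene table used for other probes lists none of them, so members are called by accession and no sequence or position is shown.

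The cells were neural stem cells of the rat hippocampus, taken from Sprague-Dawley pups at postnatal day 3 and grown to passage 3 in serum-free medium with basic fibroblast growth factor. Sevoflurane is an inhaled general anaesthetic. One group received 2.4% sevoflurane and the control group 0%, both for 6 h. One protocol in the labels adds 24 h back in an ordinary incubator, while the sample labels name only the 6 h, so it is not settled when after exposure the RNA was taken. There was 1 array per group, so no difference has a replicate check and no p-value can be given. The sources used here do not say whether an array holds RNA of 1 culture or of a pool.

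Long non-coding RNAs are transcripts without a long open reading frame. Some act on chromatin or on neighbouring genes, some bind proteins or microRNAs, and many are made in particular stages of neural development. A cDNA clone placed in a non-coding catalogue can also be an unprocessed, antisense or untranslated-region transcript of a coding gene, and the array files do not say which of these a given BC clone is. Per the labels' protocols the RNA was labelled from random primers over the whole transcript, so the signal does not depend on the 3' end alone.

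Signals are Feature Extraction's background-corrected spot brightness, averaged over the usable spots of a probe. The 75th percentile over probes was 363 under sevoflurane and 692 in the control, and each array's log2 levels were scaled by subtracting its own 75th percentile. Differences are sevoflurane minus control in log2 units of the scaled level, so a raw signal that is somewhat lower under sevoflurane can give a difference near 0. A probe counted as measured when most of its usable spots were called well above background on both arrays, and a difference of at least 2-fold (1 log2 unit) was used as the rule of size. Errors given with ± are standard errors from the spots of a probe on both arrays, usually 3 on each. They are technical and leave out the difference between cultures. Signals of different probes depend on the probe, so their order is not an order of transcript abundance.

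The 2 arrays differ in ways that touch every value. Each was scanned on a day of its own, so the day of scanning and the treatment cannot be told apart. All 10 neural stem cell markers with a probe were well above background on both arrays, with Nes, an intermediate filament gene of neural progenitors, at signals of 777 (sevoflurane) and 616 (control), and Sox2, a stem cell transcription factor gene, at 1993 and 6835. Of these 10, 2 were higher by at least 2-fold, Nes at 1.27 and Msi1 at 1.40. Lower were 2, Slc1a3 at -1.72 and Pax6 at -1.01. After a correction of the difference for mean level, described below, Nes was at 1.41, Msi1 at 0.47, Slc1a3 at -1.56 and Pax6 at -0.90. The 10 had a median difference of -0.18. Their summed scaled level, in units of the 75th percentile, was 100.3 under sevoflurane and 79.5 in the control. The brightest of them, Vim, had signals of 26446 and 26814, and the higher sum under sevoflurane rests on it. Markers of other cells differed too. Of 5 measured red blood cell markers 5 were higher by at least 2-fold under sevoflurane, and their summed level was 25.3 against 2.27. Of 5 measured microglial markers 4 were lower, with sums of 1.96 and 12.9, and the microglial receptor gene Cx3cr1 was well above background on neither array. Of 5 measured neuronal markers 3 were lower, with sums of 36.8 and 91.8. Astrocyte markers had 1 higher and 2 lower of 5 (sums 1.65 and 5.65), and oligodendrocyte markers 1 and 1 of 5 (1.52 and 1.24). Endothelial markers had 2 higher of 2 measured (0.3 and 0.049), and Pecam1 was above background on neither array. These 2 were dim, and after the correction for mean level Cldn5 was at 1.41 and Flt1 at 0.40. All these marker counts are under the main scaling. The part of these cells in the BC differences was not tested, and in bulk RNA fewer cells of a type and less RNA per cell cannot be told apart.

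BC transcripts were detected often. Of the 861 probes, 857 had a usable spot on both arrays. The other 4 were BC098801, with no usable spot on the sevoflurane array, and BC167035, BC168182 and BC169031, with none on the control array. Of the 857, 663 (77.4%) were well above background on both arrays and 79 (9.22%) on neither. Over messenger RNA probes 72.1% were above background on both, and over the rest of the non-coding section 51.3%. Among the other kinds of non-coding probe this share was 63.2% for RefSeq predicted non-coding RNAs (XR), 54.1% for the mouse-orthologue probes named MRAK and 27.1% for ultraconserved regions. Detection of BC clones was thus nearer to that of messenger RNAs than to that of any of these 3 kinds, a description of these arrays without a test.

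Detection on 1 array only was lopsided. On the sevoflurane array only, 100 BC probes (11.7%) were above background, where all usable probes gave 18.2%. On the control array only, 15 BC probes (1.75%) were, where all usable probes gave 1.61%. Probes of olfactory receptor genes, which encode odour sensors of the nose, were above background on the sevoflurane array only in 562 of 1097 cases (51.2%). The part of such signal in the 100 BC probes was not tested.

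The 663 measured BC probes had signals from 12.6 to 65380 on the sevoflurane array, with a median of 204, and from 7.82 to 72337 on the control array, with a median of 388. Across these 663 probes, which share the 2 arrays, scaled levels of both arrays had a Pearson r of 0.899 and a Spearman rho of 0.907. The spots of a probe lay close together, and their SD had a median of 0.075 (log2) under sevoflurane and 0.058 (log2) in the control, and only 7 of 663 probes had an SD above 0.5 on either array. No BC spot was saturated.

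By the rule of size, 157 measured BC probes (23.7%) were higher under sevoflurane, against 32.8% of all 16047 measured probes. In the other direction 91 BC probes (13.7%) were lower, against 12.3% of all measured probes. The median difference of the BC probes was 0.06, with quartiles at -0.61 and 0.95, while the median of all measured probes was 0.36. Of the called BC probes 63.3% were higher, against 72.8% over all probes. The 2 directions differed in brightness. The 157 higher members had a median control signal of 29.9, and 90 of them (57.3%) were under 50 there, whereas the 91 lower members had a median control signal of 1311 and 0 of them were under 50. The control signal is a term of the difference that set the call, so this contrast is partly built in. On the sevoflurane array the medians were 70.0 and 232.

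That split turned with the scaling. After quantile normalization 73 BC probes were higher (11.01%, against 15.6% of all measured probes) and 154 lower (23.2%, against 21.6%), so 32.2% of the called were higher. After a correction of the difference for mean level, the intensity-dependent correction, 75 were higher (11.3%, against 15.7%) and 133 lower (20.1%, against 19.5%), 36.1% higher. The authors' deposited value table had 74 members higher (11.2%, against 15.5%) and 154 lower (23.2%, against 21.0%), 32.5% higher. Median scaling, which many dim probes set, gave 56 higher (8.45%, against 12.5%) and 338 lower (51.0%, against 41.0%), 14.2% higher. The median of all measured probes shifted with it, from 0.36 to -0.10 with quantile normalization, -0.10 in the deposited values, -0.07 after the intensity-dependent correction and -0.73 under median scaling. In each of these settings the BC median lay below that of all measured probes, at -0.34, -0.36, -0.31 and -1.03 in that order, and the share of BC probes called higher was below the share over all measured probes.

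Differences varied with level. In 4 equal groups of measured BC probes by mean level, the dimmest had 92 of 166 higher and 7 lower and a median difference of 1.24. The next had 36 higher and 23 lower of 166 (median 0.06), the third 15 and 34 of 165 (-0.36), and the brightest 14 and 27 of 166 (-0.32). After the intensity-dependent correction the medians of these 4 groups were -0.34, -0.34, -0.25 and -0.27, and the counts were 20 higher and 42 lower, 22 and 37, 20 and 29, and 13 and 25. Set beside all probes in 10 equal groups by level, BC probes had a median of 1.77 in the dimmest group (all probes 1.73) and of -0.27 in the brightest (all probes 0.17). In the dimmest group 90.6% of BC probes and 77.8% of all probes were higher, in group 2 43.5% and 62.4%, and in the brightest 9.84% and 16.7%. Lower were 14.8% of BC probes and 9.72% of all probes in the brightest group, and 0 BC probes and 0.0623% of all probes in the dimmest. In group 2 the BC median was 0.77 (all probes 1.44), and in group 7 -0.49 (all probes -0.15). The BC median was the lower one in 8 of these groups and the higher one in groups 1 and 6, where it was 0.09 against -0.05.

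The other kinds of non-coding probe differed among themselves on the same scale. XR probes had a median difference of 1.22, with 648 higher and 31 lower of 1072 measured, and after the intensity-dependent correction 384 and 69 with a median of 0.69. MRAK probes had 684 higher and 401 lower of 1938 and a median of 0.28 (268 and 655, and -0.47, after the correction). Messenger RNA probes had a median of 0.25 (-0.08 after the correction), with 3100 higher and 1316 lower of 11060. Of the called MRAK probes 63.0% were higher, near the 63.3% of BC probes. The BC median of -0.31 after the correction lay between those of the MRAK probes and of the messenger RNA probes. After the correction other mouse-orthologue probes had a median of -0.14, other GenBank probes 0.20 and ultraconserved regions 0.005. No test of these differences is possible with 1 array per group.

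Spots of the 2 arrays did not overlap for most members, nor for most of the probes set beside them here. This is thus not particular to BC probes. Sevoflurane spots were all above control spots, after scaling, for 316 of 663 BC probes (47.7%, against 62.7% of 4775 measured probes with at least 2 usable spots per array) and all below for 291 (43.9%, against 30.2%). These 4775 probes, with the BC probes among them, are only a part of the 16047 measured probes, so their shares are not array-wide. Many differences far smaller than 2-fold were therefore larger than the spread of spots. Spots share 1 RNA sample, so this spread leaves out how cultures vary.

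BC088211 had the highest difference of all 16047 measured probes. The rule for named members takes the brighter part of the measured members, the 332 at or above their median mean level. BC088211 fell outside it and was singled out after its values were seen. Its 3 spots read 6799, 7024 and 7183 on the sevoflurane array and 6.07, 9.17 and 18.6 on the control array, where 2 of 3 spots were called well above background. The arrays did not overlap, and the control spots lay near 7.22, the lowest mean signal of a probe called above background on that array. The difference was 10.37 ± 0.47, and it ranged from 7.49 (after normexp background correction) to 10.50 over the 7 other settings. The next highest measured probe of the array was at 9.54. Differences of 8 or more, with the probe above background on the sevoflurane array, were found for 58 of 24629 usable probes, and BC088211 was the only BC probe among them (1 of 857, 0.117%, against 0.235% of all). The 58 included 5 probes of olfactory receptor genes. What such probes share with BC088211 was not tested.

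BC083922 led the brighter part of the members. Its spots read 863, 968 and 1400 under sevoflurane and 77.5, 85.7 and 88.0 in the control, a difference of 4.59 ± 0.22 that stayed between 3.50 and 4.72 in the other settings. The sevoflurane spots were more spread than is usual for these probes, yet each was well above each control spot.

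BC158578 had signals of 2312 under sevoflurane and 638 in the control (difference 2.79 ± 0.03, 1.70 to 2.95 in other settings). BC092619 had 1710 and 570 (2.52 ± 0.05), and BC090008 had 6180 and 2359 (2.32 ± 0.05). These 3 were high on the sevoflurane array even before scaling, with spots of each probe nearly alike. BC161950 had 888 and 376 (2.17 ± 0.06). With BC083922 these make the 5 members of the brighter part that were higher by at least 2-fold in all 8 settings.

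The next 7 of the 12 highest members of the brighter part lay between 1.52 and 1.95, and each dropped under 2-fold with median scaling only. BC169099 had signals of 668 and 330 (1.95 ± 0.13), BC111077 had 560 and 281 (1.92 ± 0.05), and BC093391 had 3842 and 2241 (1.71 ± 0.02). All 3 had the brighter raw signal under sevoflurane. BC062018, at 4095 and 2407, differed by 1.70 ± 0.07, and BC168221, at 853 and 514, by 1.66 ± 0.05. BC169018, at 2106 and 1304, differed by 1.62 ± 0.16, and BC166462, at 343 and 228, by 1.52 ± 0.03.

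Among lower members, BC089056 was the lowest of the brighter part. Its spots read 103, 110 and 115 under sevoflurane and 1616, 1653 and 1668 in the control, a difference of -2.98 ± 0.05 (-4.07 to -2.53 in other settings). BC086602 followed with 136, 146 and 153 against 1943, 1947 and 1969 (-2.82 ± 0.05). In both, every control spot was far above every sevoflurane spot. BC100083 had signals of 285 and 2742 (-2.34 ± 0.08), BC158761 had 344 and 3064 (-2.22 ± 0.05), and BC128730 had 146 and 1172 (-2.08 ± 0.05). These 5 were lower by more than 4-fold on the scaled level.

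The next 7 of the 12 lowest lay between -1.98 and -1.78. BC091318 had signals of 195 and 1468 (-1.98 ± 0.06), BC104673 had 889 and 6353 (-1.91 ± 0.04), and BC099108 had 212 and 1433 (-1.82 ± 0.20, with the widest spots of the 12). On the raw scale too, each control signal was several times the sevoflurane signal. BC091372, at 495 and 3325, differed by -1.82 ± 0.04, and BC086520, at 124 and 827, by -1.80 ± 0.04. BC091315, at 1398 and 9153, differed by -1.78 ± 0.09, and BC098779, at 1322 and 8632, by -1.78 ± 0.04. All 12 lowest members of the brighter part kept a difference of at least 2-fold in all 8 settings, where 5 of the 12 highest did. This contrast was set by median scaling, which lowered every difference by the same amount. No lower call could be lost in it, and the other 7 highest fell under 2-fold in that setting only.

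Over the whole set, 39 BC probes (5.88%, against 8.46% of all measured probes) were higher and 55 (8.30%, against 7.37%) were lower by at least 2-fold in all 8 settings. The 39 had differences from 2.11 to 10.37, and only 5 were in the brighter part. The 55 had differences from -3.46 to -1.14, and 45 were in the brighter part. Of the 157 higher members 41 turned sign in at least 1 other setting, and of the 91 lower members 2 did, both after normexp. Median scaling lowers every difference alike, so it could remove higher calls only. Without it 64 and 55 members kept their call.

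Some members of the dimmer part that held in all settings were named after their values were seen. BC100078 read 493, 501 and 541 under sevoflurane and 80.2, 84.6 and 91.7 in the control (3.51 ± 0.07, 2.43 to 3.65 in other settings). BC158817 had signals of 56.9 and 9.75 (3.48 ± 0.05, but 1.72 after the intensity-dependent correction), BC097453 had 49.2 and 9.43 (3.31 ± 0.16, 1.46 after it), and BC091243 had 46.0 and 9.79 (3.16 ± 0.26, 1.30 after it). BC100078 moved little with the correction, while the 3 dim members lost more than 1.5 log2 units. On the lower side, BC091317 read 54.1, 57.2 and 60.2 under sevoflurane and 1178, 1203 and 1204 in the control, at -3.46 ± 0.05 the lowest measured BC probe. BC091379 had signals of 36.3 and 619 (-3.16 ± 0.16), and BC161992 had 16.0 and 222 (-2.87 ± 0.03, but -1.09 after normexp).

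Several lower members have neighbouring accession numbers, a pattern noticed after the values were seen and not tested. The run of 100 accession numbers that starts with BC0913 had 28 members, of which 26, from BC091304 to BC091392, were measured. By the rule of size 10 were lower and 2 higher, with a median of -0.81 (11 lower, 1 higher and -0.77 after the intensity-dependent correction). Of the 15 runs of 100 accession numbers with at least 12 measured members, this one had the most measured and the most lower members (38.5%). By share the most was 42.9%, in the next run given. BC099100 to BC099197 had 6 lower and 2 higher of 14 (median -0.69), with 6 lower after the correction. BC092601 to BC092657 had 5 lower and 2 higher of 13 (median -0.73), with 7 lower after it. By contrast BC158609 to BC158682 had 4 higher and 0 lower of 13, with a median of 0.74 (1 and 1, and 0.27, after the correction). For comparison, 13.7% of all measured BC probes and 12.3% of all measured probes were lower, and 23.7% and 32.8% higher. The sources used here do not say whether clones with neighbouring numbers come from 1 library, tissue or locus.

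Within the first of these runs, the limits BC091311 and BC091321 were picked after the values were seen. All 8 members between them were measured and had a difference below 0, 7 of them in every setting. At least 2-fold lower in every setting were 4, where 8.30% of measured BC probes and 7.37% of all measured probes were. The share of all probes below 0 was not counted. The median of measured BC probes was itself -0.34 after quantile normalization and -1.03 under median scaling. BC091311 had signals of 436 and 2475 (-1.57 ± 0.02) and joins BC091315, BC091317 and BC091318 given above. The other 4 were lower by less than 2-fold. BC091319 had 112 and 351 (-0.72 ± 0.06), BC091316 had 143 and 349 (-0.35 ± 0.05), and BC091320 had 504 and 1156 (-0.27 ± 0.02). BC091321, at 101 and 218, was at -0.18 ± 0.18 and at 0.03 in 1 other setting, so its sign is not settled even by its spots.

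Over wider ranges of accession number, members measured on both arrays made up from 67.9% (BC157820 to BC159439, 55 of 81) to 79.7% (BC081695 to BC089999, 149 of 187). The lowest median difference was that of BC090002 to BC099800, at -0.33 with 28 higher and 33 lower of 162 measured (-0.47 after the intensity-dependent correction). The 27 measured members from BC058457 to BC079474 had the highest, at 0.64 with 10 higher and 1 lower (0.08 after the correction). BC160825 to BC169129 had 46 higher and 20 lower of 194 and a median of 0.31 (-0.14 after the correction). These ranges also differ in level, with median scaled levels from -2.10 to -0.28.

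For the 100 members above background on the sevoflurane array only, a bound on the fold was set under the main scaling. The sevoflurane level was set against the higher of the control spots' own level and the lowest level that counted as above background on the control array. Where the control spots' own level was the higher, the bound is the main difference itself, as for BC161798, BC059164 and BC101877. All 100 bounds were at least 2-fold, as were 4489 of 4491 over all probes of that kind. This count thus says nothing particular to BC probes. The median bound was 5.70-fold. The lowest signals counted as above background were close, 6.88 under sevoflurane and 7.22 in the control, but the 75th percentiles were 363 and 692. Scaling therefore raised every bound in this direction and lowered those in the other. The share of bounds past 2-fold was thus in large part built in. BC161798 read 285, 379 and 391 under sevoflurane and 5.94, 7.10 and 9.65 in the control, where 1 of 3 spots was above background. Its bound was 89.7-fold. BC059164 read 299, 334 and 355 against 7.56, 8.45 and 8.60 and had a bound of 76.5-fold. Both were clearly lit on 1 array and near background on the other. BC088179 (signals 47.5 and 6.13), BC105831 (46.9 and 2.57) and BC101877 (48.0 and 7.45) had bounds of 12.5-fold, 12.4-fold and 12.3-fold. BC101877 had 1 spot at 107 beside 29.9 and 34.5. After normexp the differences of BC161798 and BC059164 were both 3.40, under their bounds of 6.49 and 6.26 in log2 units. Those of the other 3 were from 1.52 to 1.64, also under their bounds.

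Of the 15 members above background on the control array only, 4 had a bound of at least 2-fold (26.7%, near the 28.3% of 396 over all probes of that kind) and 4 had no fold above 1 after scaling. BC072467 stood apart from the rest. It read 3.06, 4.42 and 10.03 under sevoflurane and 255, 269 and 272 in the control, with a bound of 20.2-fold lower under sevoflurane. Of 24629 usable probes of the array, 22 had a difference of -4 or below and a control signal above background. BC072467 was the only BC probe among them, 1 of 857 usable. BC079432 (signals 7.44 and 40.7) had a bound of 2.87-fold lower, BC166750 (10.01 and 43.5) of 2.28-fold and BC166779 (8.89 and 34.2) of 2.02-fold. These bounds are the main differences themselves. BC085332 (3.16 and 26.2) followed with a bound just under 2, at 1.996-fold. Apart from BC072467 these members were faint on both arrays. After normexp the differences of the last 4 turned sign, to between 0.21 and 0.45, while BC072467 was at -1.47, short of its bound. Bounds in both directions thus belong to the main scaling and do not hold in every setting.

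Of the 8 members with the strongest mean signal, 6 were within 2-fold on the scaled level and 2 were higher. BC166798 had signals of 65380 and 71450 (0.80 ± 0.12), BC161988 had 62930 and 69764 (0.78 ± 0.11), BC166770 had 58162 and 72337 (0.62 ± 0.04), and BC158811 had 52259 and 68291 (0.54 ± 0.04). Their sign depends on the scaling, since each of these 4 was below 0 after the intensity-dependent correction. BC158568 had 48739 and 35046 (1.41 ± 0.03, 0.71 after the correction) and BC064030 had 22863 and 15771 (1.47 ± 0.07, 1.01 after it). These 2 were the only ones of the 8 with a brighter raw signal under sevoflurane. BC159439 had 12688 and 36812 (-0.61 ± 0.04, -1.10 after the correction), and BC158739 had 10815 and 18168 (0.18 ± 0.10, -0.19 after it).

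Members on either side of the 2-fold rule were as follows. BC081860, with signals of 31.2 and 29.6, was just inside on the higher side at 1.01 ± 0.21, and BC166558, with 158 and 151, was just outside at 0.999 ± 0.07. On the lower side BC099220, with 50.8 and 194, was just inside at -1.005 ± 0.04. BC085124, with 821 and 3130, was just outside at -0.9999 ± 0.03. In both pairs the gap between inside and outside was smaller than the spot error.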

How the data were processed

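The authors deposited 2 scanner files, 1 per array, with the intensity of each spot (linear, 1 colour) as Agilent Feature Extraction 11.0.1.1 gives it, per the file headers. They are not scaled between arrays. The deposited value table holds log2 values by a method not given in the sources used here. Over BC probes it correlated at 0.992 (sevoflurane) and 0.994 (control) with log2 scanner signals, and 26 and 103 BC probes sat at its lowest value of each column, 2.32 and 2.73. The medians of its columns were both 5.62 over probes that are not controls, so it is read as normalized between arrays, with program and centring unknown. For the 8 members with the strongest mean signal its differences equalled those after quantile normalization. These 2 settings are therefore not separate checks.

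Spots flagged as non-uniform or population outliers were left out (49 and 57 of 2583 BC spots). Log2 processed signals were averaged per probe and scaled by the 75th percentile. Alternatives were normexp (limma 3.58.1, offset 50, run on the median spot signal, as the files hold no mean signal), quantile normalization, median scaling, the percentile over detected probes, a loess correction against mean level (span 0.3), the deposited table and keeping flagged spots. The steps up to the main difference were tested on simulated data, made from the control array with known folds given only to brighter probes. A shift that varies with level, the alternatives and the bounds were not part of that test. Precision is limited by 1 array per group.

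Members, lists and alternatives were chosen with earlier results of these data known. The rule for named members takes, among the brighter part (at or above the median) of measured BC probes by mean level, the 12 highest and 12 lowest differences, then the 5 strongest bounds per direction, the 8 strongest signals and the probes nearest the 2-fold rule. Markers were named through RefSeq accessions (assembly GRCr8). Array coordinates were not used.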

Additional observations from a re-analysis of the deposited data

How the results depend on the processing

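No paired analysis was possible because each group has 1 array. Probes of 1 transcript could not be compared, since each BC accession has 1 probe. The count of higher BC probes (157) was 73 after quantile normalization, 56 under median scaling, 75 after the intensity-dependent correction, 74 in the deposited table, 326 with no filter on dim probes and 29 in the brighter part. The count of lower BC probes (91) was 154 after quantile normalization, 338 under median scaling and 154 in the deposited table. The median difference (0.06) was 0.20 after normexp, -0.34 after quantile normalization, -1.03 under median scaling, 0.20 with the percentile over detected probes, -0.31 after the intensity-dependent correction, -0.36 with the deposited values, 0.43 with no filter and -0.35 in the brighter part. Of the other counts, those of lower probes stayed between 61 and 133 and those of higher probes between 123 and 181. Detection counts stayed within 1.5 times (643 and 668 on both arrays). BC081860 reversed, to -0.50 after quantile normalization, -0.080 under median scaling, -0.51 in the deposited values and -0.49 after the intensity-dependent correction. The brighter part holds fewer probes by construction. Median scaling and the percentile over detected probes each shift every difference by the same amount, and their medians follow from that shift. For the other settings the cause was not tested. Of the 861 probes, 79 were well above background on neither array, and their differences are counted only with no filter on dim probes. Also not measured were the 100 and 15 above background on 1 array only, and the few with no usable spot on 1 array.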
